A study of Mus musculus with 3 samples.

Results

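The 10 genes described here encode microtubule-associated proteins (*Map1a*, *Map1b*, *Map2*, *Mapt*), the doublecortin family (*Dcx*, *Dclk1*) and the stathmins (*Stmn1*, *Stmn2*, *Stmn3*, *Stmn4*). They were taken by symbol, and all 10 are among the 14933 genes of the table of filtered cells. The cells are tdTomato-positive cells sorted from the medial prefrontal cortex (mPFC) of C57Bl6 mice at postnatal day 5. Each of 3 genotypes gave 1 10X Genomics 3′ library. The wild-type library came from Rbp4cre::tdTomato mice, the heterozygous from mice with 1 floxed *Tbr1* allele (Tbr1f/+::Rbp4cre::tdTomato), and the homozygous from mice in which both alleles were floxed (Tbr1f/f::Rbp4cre::tdTomato). All mice, controls included, carried the Rbp4-cre transgene, a bacterial artificial chromosome line that drives Cre in layer 5 pyramidal neurons, and a Cre-dependent tdTomato reporter. Cre removes exons of *Tbr1*, a T-box transcription factor of deep-layer neurons, in the same cells. How many animals entered each library is not given in the sources used here, so animal and library cannot be told apart from genotype.

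Microtubules give neurites their tracks and their stiffness, and a growing neuron balances proteins that hold the polymer together against proteins that take it apart. MAP1B, doublecortin and stathmins are known from young neurons that migrate and extend axons. MAP2 is known from dendrites, tau (the product of *Mapt*) from axons, and MAP1A from later stages of maturation.

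Promoter windows of these genes are shown because TBR1 is a sequence-specific factor. RefSeq (GRCm38.p6) windows matched 6 of the 10 genes, with 8 windows in all. *Mapt*, *Stmn1*, *Stmn2* and *Stmn4* had no window. The stretch upstream of the annotated first exons, at most 250 bases, was kept. The first 3 windows below have each CG dinucleotide in capitals, and the last has the T-box core motif GTGTGA in capitals.
*Map2*, chr1:66175079-66175272, plus strand: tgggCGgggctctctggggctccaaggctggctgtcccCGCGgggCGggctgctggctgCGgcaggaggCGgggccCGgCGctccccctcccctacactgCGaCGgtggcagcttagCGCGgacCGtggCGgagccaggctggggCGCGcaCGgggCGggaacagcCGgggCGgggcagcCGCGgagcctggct
*Map1b*, chr13:99516603-99516852, minus strand: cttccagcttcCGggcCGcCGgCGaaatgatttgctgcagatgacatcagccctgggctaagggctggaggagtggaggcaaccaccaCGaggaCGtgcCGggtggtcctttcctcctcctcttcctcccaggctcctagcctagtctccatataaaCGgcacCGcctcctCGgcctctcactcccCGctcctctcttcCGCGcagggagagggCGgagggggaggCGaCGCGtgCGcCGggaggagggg
*Stmn3*, chr2:181314501-181314750, minus strand: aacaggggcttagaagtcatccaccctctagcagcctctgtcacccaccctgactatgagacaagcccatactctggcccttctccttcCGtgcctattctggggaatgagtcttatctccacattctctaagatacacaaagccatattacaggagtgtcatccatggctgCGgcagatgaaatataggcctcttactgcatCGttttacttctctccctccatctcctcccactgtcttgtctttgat
*Dclk1*, downstream start, chr3:55461478-55461727, plus strand: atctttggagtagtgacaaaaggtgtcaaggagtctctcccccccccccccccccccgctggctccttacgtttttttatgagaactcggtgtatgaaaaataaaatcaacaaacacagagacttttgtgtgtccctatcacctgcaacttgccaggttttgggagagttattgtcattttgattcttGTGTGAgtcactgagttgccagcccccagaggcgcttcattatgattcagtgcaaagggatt

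The windows differ in CG content. The *Map2* window holds 22 CG dinucleotides in 194 bases, that of *Map1a* 20 and that of *Map1b* 19, against 3 for *Stmn3*, 1 for *Dcx* and 4 in each of the *Dclk1* windows. The median over 32851 RefSeq windows was 6, counted in the 250 bases before the start, and 17.9% of them held at least 20. The motif, searched as GTGTGA on both strands (TCACAC on the other), was found once, in the downstream *Dclk1* window, and 12.3% of all windows hold it. A match of letters is a description of the sequence, and binding of TBR1 was not measured in these libraries. *Map2*, which had higher levels in both mutant libraries, and *Map1b*, which had lower ones (below), both have CG-rich windows. *Stmn3*, which was also lower in both, has 3 CG dinucleotides. With no window for *Mapt*, *Stmn1*, *Stmn2* and *Stmn4*, the relation of CG content to the direction of the differences was not tested.

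Over all barcodes the libraries held 33322518 to 55057757 unique molecular identifiers (UMIs, each a counted RNA molecule). The authors sorted filtered cells into typical neuronal cells (1778, 5357 and 3935 cells in the order wild-type, heterozygous, homozygous), atypical neuronal cells set aside for low excitatory markers (304, 107 and 462), and the rest, here called outside cells (2873, 1398 and 1182). Typical cells had median UMIs per cell of 1901, 1743 and 1375 in that order, and median mitochondrial shares of 10.4%, 15.4% and 12.5%. The lowest UMIs of a typical cell were 1533, 1196 and 1040, so the homozygous median lay below the wild-type minimum. The cells kept thus differ in depth between genotypes, which scaling or thinning of UMIs does not undo. The part of this in the genotype differences was not tested. Barcodes shared by a pair of libraries numbered 37 to 58, near the 37.5 to 51.9 that random draws would give. *Tbr1* itself was at 27.5, 30.7 and 22.4 UMIs per 1000000 UMIs (CPM) in typical cells, and the wild-type counting interval (22.4 to 33.4) overlapped those of both mutants (27.4 to 34.3 and 18.8 to 26.5). A 3′ read does not cover the deleted exons, so this level does not check the genotypes. In typical cells the excitatory neuron markers *Neurod6* (201, 246 and 239.9 CPM) and *Nrgn* (1692, 2062 and 2722 CPM) were present in every library. The layer 5 list summed to 214, 202 and 222 CPM in these cells. It summed to 209, 201 and 200 CPM in outside cells and to 269, 277 and 358 in atypical cells. This list thus did not set typical cells apart. Most lists of other cell types were highest in wild-type typical cells, with inhibitory neuron at 91.3, 68.5 and 66.2 CPM, oligodendrocyte precursor at 269.98, 219 and 197, cycling at 64.3, 36.8 and 55.97, blood at 324, 42.2 and 81.5 CPM, endothelial at 74.1, 14.01 and 29.1, mural at 34.6, 14.4 and 17.1, meningeal fibroblast at 19.3, 6.43 and 7.24 and microglia at 55.8, 29.3 and 33.6. The oligodendrocyte list was highest in heterozygous cells (101, 124 and 103) and the striatal projection neuron list in homozygous cells (31.6, 31.3 and 49.6). The part of these lists in the genotype differences was not tested. The astrocyte and radial glia list, led by *Fabp7*, summed to 5828 to 6683 CPM in typical cells and to 6208 to 6830 CPM in empty droplets (barcodes with 100 or more but under 500 UMIs, which carry free RNA).

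All levels are UMIs of a gene per 1000000 UMIs of the group of cells. Reads come from 3′ ends, so levels are compared between groups for 1 gene and not between genes. Intervals are 95% and cover counting error only. With 1 library for each genotype no test between genotypes was possible, and no value has a replicate error. A gene is counted as past the limit when the log2 ratio of its CPM was at least 0.32 in either direction, a limit of size and not a test. The background is the share of all genes at a mean of 20 CPM or more in the groups compared that passed the same limit, which is 4261 genes between genotypes, 4239 to 4375 for atypical and 4911 to 5336 for outside cells in 1 library, and 3774 and 4657 where all 3 libraries were needed.

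In typical neurons *Mapt* was the member with the largest difference between genotypes, and it lay below wild-type in both mutant libraries. *Map1b*, *Stmn2* and *Stmn3* were also lower in both, by less, while *Map2* and *Stmn1* were higher in both. Against wild-type, 1 of 10 members (*Mapt*) was past the limit downward in the heterozygous library, as were 9.50% of all genes, and 3 of 10 (*Map1a*, *Mapt*, *Stmn2*) were in the homozygous one, as were 8.50%. *Map1a* fell short of the limit with atypical cells included (−0.30) and with the deepest 5% of cells left out (−0.31). That count was thus 2 in both, beside 9.27% and 8.82% of all genes in that order. Upward, 0 of 10 were past it in either mutant, against 17.1% and 17.2% of all genes. With the genes of the neuronal table as denominator the share of all genes up and down was 11.8% and 11.7% in the homozygous comparison, with mean raw UMIs per cell 1.01% and 52.4%, and among genes of any level 24.5% and 25.3%. *Mapt* alone was past it downward in both mutants, as were 5.68% of genes, and 0 of 10 were past it upward in both, as were 11.7%. A 1.5-fold difference was reached by 0 of 10, beside 3.59% of genes upward and 2.39% downward for heterozygous, and 2.96% and 1.95% for homozygous. Between the mutants 0 of 10 were past the lower limit, beside 4.04% of genes upward and 2.68% downward. The median log2 ratio of the members was −0.18 for heterozygous and −0.11 for homozygous over wild-type, beside 0.06 and 0.08 for all genes. Both comparisons use the same wild-type library, so their likeness is not independent.

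**Figure D1:**
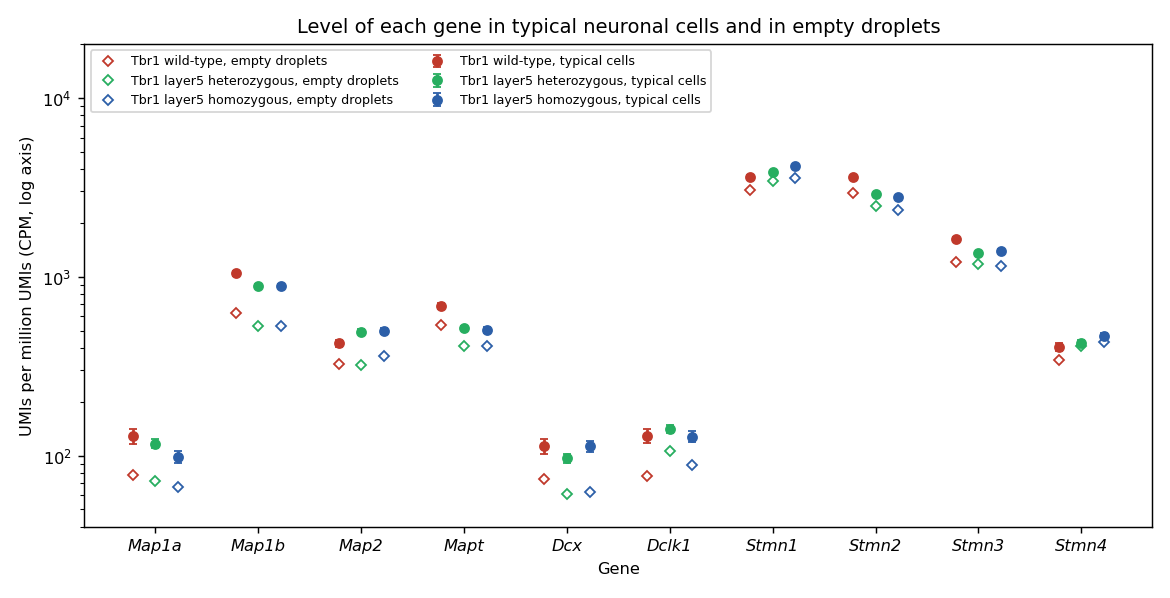
Level of each gene (CPM, log axis) in typical neuronal cells (filled circles, bars are 95% Poisson intervals) and in empty droplets (open diamonds) of the wild-type, *Tbr1* layer 5 heterozygous and homozygous libraries. *Mapt* and *Stmn2* were highest in the wild-type library among both cells and droplets, *Stmn1* was lowest there, and each circle lies above its own diamond.

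*Mapt* (chr11:104231390-104332090, plus strand, GRCm38) encodes tau, which binds along axonal microtubules. Typical cells held it at 690 CPM in wild-type (663 to 717), 519 in heterozygous (505 to 533) and 503 in homozygous (485 to 521). The wild-type library stood above both mutants, and the mutant intervals overlapped. The log2 ratio was −0.41 (−0.48 to −0.34) for heterozygous and −0.46 (−0.53 to −0.38) for homozygous over wild-type, and −0.05 (−0.11 to 0.02) for homozygous over heterozygous. Of all genes at 20 CPM or more, 6.22% had a lower ratio in the heterozygous and 4.08% in the homozygous comparison. With every cell thinned to 1000 UMIs, *Mapt* was seen in 48.5% of wild-type, 40.3% of heterozygous and 39.8% of homozygous typical cells. In endothelial-like cells, which should lack tau, the thinned shares were 15.2%, 8.43% and 8.03% at unthinned median depths of 3027, 2542 and 2223 UMIs, so the wild-type share was the highest there as well. Unthinned, the typical cells gave 73.3%, 60.5% and 52.5%.

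*Map2* (chr1:66175273-66442583, plus strand) encodes the dendritic microtubule-associated protein. Its level was 423 CPM in wild-type (403 to 445), 493 in heterozygous (479.97 to 507) and 497 in homozygous typical cells (479.9 to 516). The order was thus the opposite of that of *Mapt*, with both mutants above wild-type and their own intervals overlapping. The log2 ratios were 0.22 (0.14 to 0.30) and 0.23 (0.14 to 0.32), short of the limit. Of all genes at 20 CPM or more, 72.4% and 72.5% had a lower ratio in these comparisons. Thinned shares of cells with a UMI were 32.3%, 37.5% and 37.2% in typical cells and 7.80%, 6.02% and 7.30% in endothelial-like cells. The 2 mutants gave 0.01 (−0.05 to 0.08) against each other, an interval that held 0 and covers counting error only.

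*Map1b* (chr13:99421446-99516540, minus strand) encodes the MAP of growing axons, and *Map1a* (chr2:121289600-121310832, plus strand) its relative of mature neurons. *Map1b* was at 1048 CPM in wild-type (1015 to 1081), 890.3 in heterozygous (872 to 909) and 886 in homozygous typical cells (862 to 909.8). Its log2 ratios were −0.24 (−0.29 to −0.18) and −0.24 (−0.30 to −0.18), and the mutants did not separate from each other (−0.01, −0.06 to 0.04). *Map1a* was at 128 CPM (117 to 140.2), 117 (110.3 to 124) and 98.3 (90.6 to 106). Here the homozygous library was the lowest, with log2 ratios of −0.13 (−0.29 to 0.02) for heterozygous and −0.38 (−0.56 to −0.20) for homozygous over wild-type, and −0.25 (−0.39 to −0.11) between the mutants. *Map1a* rests on 470, 1217 and 597 UMIs in the 3 libraries, which is why its intervals are wide.

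*Dcx* (chrX:143855842-143933311, minus strand) encodes doublecortin of migrating neurons, and *Dclk1* (chr3:55242364-55539068, plus strand) a kinase with doublecortin domains. *Dcx* was at 113 CPM in wild-type (102 to 124), 96.6 in heterozygous (90.7 to 103) and 112 in homozygous typical cells (104 to 121). Only the heterozygous library was low, with a log2 ratio of −0.22 (−0.39 to −0.06), while the homozygous ratio was −0.00 (−0.18 to 0.18) and that between the mutants 0.22 (0.08 to 0.36). *Dclk1* was at 128 CPM (117 to 140.4), 140.4 (133 to 148) and 128 (119 to 137), with log2 ratios of 0.13 (−0.02 to 0.28) and −0.01 (−0.18 to 0.16), so neither mutant could be told from wild-type at this depth. Between the mutants, homozygous cells were lower, at −0.14 (−0.27 to −0.01). *Dclk1* has 11 annotated coding transcripts with 10 distinct 3′ ends (GENCODE M21) that spread over 291585 bases, and its UMIs do not tell these apart. The same limit holds for other members. *Map2* has 16 coding transcripts with 12 distinct 3′ ends over 61966 bases, and *Mapt* has 8 with 7 ends over 37166 bases.

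The stathmins bind free tubulin and promote disassembly of the polymer. *Stmn1* (chr4:134468320-134473843, plus strand) was at 3618 CPM in wild-type (3557 to 3680.2), 3839.7 in heterozygous (3802 to 3878) and 4151 in homozygous typical cells (4100.4 to 4203). The 3 intervals do not overlap and follow the order wild-type, heterozygous, homozygous. The log2 ratios over wild-type were 0.09 (0.06 to 0.11) and 0.20 (0.17 to 0.23), beside medians of 0.06 and 0.08 for all genes. Of all genes at 20 CPM or more, 53.5% had a lower ratio in the heterozygous and 67.6% in the homozygous comparison. *Stmn2* (chr3:8509360-8561606, plus strand), the neuron-specific family member of growth cones, went the other way, at 3591 (3530.2 to 3653), 2895 (2862 to 2928) and 2780.5 (2739 to 2823) CPM. Its log2 ratios were −0.31 (−0.34 to −0.28) and −0.37 (−0.40 to −0.34), and −0.06 (−0.09 to −0.03) between the mutants. The direction was thus opposite for the 2 most counted stathmins.

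*Stmn3* (chr2:181306459-181314500, minus strand), a Golgi-associated stathmin, was at 1615 CPM in wild-type (1574 to 1657), 1360.02 in heterozygous (1338 to 1383) and 1396 in homozygous cells (1366 to 1426). Both mutants lay below wild-type, at −0.25 (−0.29 to −0.20) and −0.21 (−0.26 to −0.16). *Stmn4* (chr14:66344296-66361680, plus strand) was at 405 (384 to 426), 428 (416 to 441) and 468 (450.5 to 485) CPM. The homozygous library alone stood above wild-type, at 0.21 (0.12 to 0.30), and the heterozygous ratio was 0.08 (−0.00 to 0.17). Of all genes at 20 CPM or more, 69.1% had a lower ratio than *Stmn4* in the homozygous and 52.9% in the heterozygous comparison. Homozygous over heterozygous, *Stmn1* was at 0.11 (0.09 to 0.14), *Stmn3* at 0.04 (−0.00 to 0.08) and *Stmn4* at 0.13 (0.06 to 0.20). Among cells of a genotype thinned to 1000 UMIs, the variance of UMIs over their mean was 1.31 to 1.35 for *Stmn1*, 1.15 to 1.31 for *Stmn2*, 1.08 to 1.17 for *Map1b* and 0.992 to 1.11 for the other 7 members in the 3 libraries, where counting alone gives 1.

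**Figure D2:**
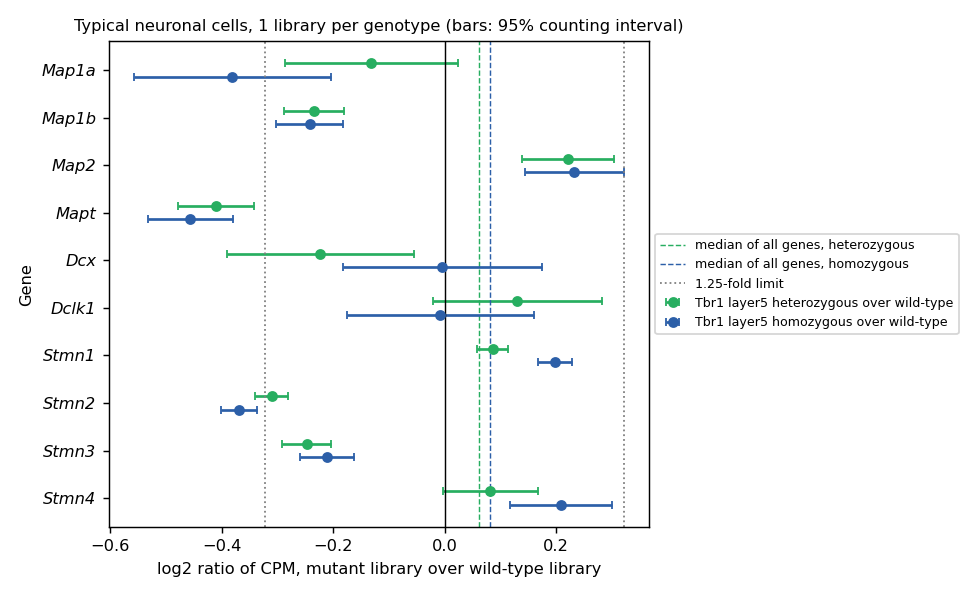
Log2 ratio of CPM (horizontal axis) of the heterozygous (green) and homozygous (blue) library over the wild-type library in typical neuronal cells, with 95% counting intervals as bars, the median of all genes as dashed lines and the limit of 0.32 either way as dotted lines. *Mapt* lies past the lower limit in both (−0.41 and −0.46), and *Map2* is the gene furthest to the right in both (0.22 and 0.23).

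Some differences had the same direction in typical cells and in the empty droplets of the same libraries, with both intervals off 0. These were *Mapt*, *Map1b*, *Stmn1*, *Stmn2* and *Stmn3* in both mutants, *Dcx* in heterozygous, and *Map1a*, *Map2* and *Stmn4* in homozygous. The sign was also shared, but with an interval in cells that held 0, by heterozygous *Stmn4* and *Dclk1* and by homozygous *Dcx*. Heterozygous *Map1a* shared the sign with intervals that held 0 in both cells and droplets (−0.10, −0.25 to 0.04, in droplets). *Mapt* was at 535 CPM in wild-type droplets, 410 in heterozygous and 408 in homozygous, log2 ratios of −0.39 (−0.44 to −0.33) and −0.39 (−0.44 to −0.34), close to the ratios of the cells. *Map1b* gave −0.24 in droplets of both mutants, *Stmn2* −0.23 and −0.31, and *Stmn1* 0.17 and 0.22. *Stmn4* gave 0.25 (0.19 to 0.31) and 0.33 (0.27 to 0.38), more than in the cells, and *Map1a* −0.22 (−0.34 to −0.09) for homozygous. *Map2* in heterozygous droplets was at −0.02 (−0.08 to 0.05), unlike the cells, while in homozygous droplets it was at 0.14 (0.09 to 0.20), with an interval that overlaps that of the cells. *Stmn3* droplet ratios of −0.04 (−0.07 to −0.00) and −0.08 (−0.11 to −0.05) were smaller in size than those of the cells. *Dclk1* was higher in mutant droplets (0.46, 0.33 to 0.59, and 0.21, 0.09 to 0.32) although its level in typical cells could not be told from wild-type. *Dcx* was lower in the droplets of both mutants (−0.27, −0.42 to −0.12, and −0.24, −0.37 to −0.11), whereas in typical cells it was lower in heterozygous (−0.22) and not in homozygous cells (−0.00). When the droplet profile was subtracted at the largest share that markers of other cell types allow (22.5%, 12.1% and 15.3% of the UMIs), *Mapt* stood at −0.46 and −0.50, *Map2* at 0.19 and 0.21, and *Stmn2* at −0.36 and −0.41. The heterozygous count past the downward limit was then 3 in place of 1, with 11.8% of all genes past it in place of 9.50%. The source of the RNA in the droplets was not tested.

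Typical cells held more of these transcripts than the droplets in every library. The log2 ratio of typical cells over droplets was 0.74 to 0.75 for *Map1b*, 0.56 to 0.72 for *Map1a*, 0.61 to 0.85 for *Dcx* and 0.30 to 0.37 for *Mapt*. It was smaller for the abundant stathmins, at 0.16 to 0.24 for *Stmn1* and 0.21 to 0.30 for *Stmn2*. *Stmn4* in the heterozygous library was the one value whose interval included 0 (0.06, −0.00 to 0.13).

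The ratios *Mapt* to *Map2* and *Stmn1* to *Stmn2*, which need no scaling for depth, were chosen after these values were seen. UMIs of *Mapt* per UMI of *Map2* were 1.63 in wild-type (1.53 to 1.74), 1.05 in heterozygous (1.01 to 1.09) and 1.01 in homozygous typical cells (0.960 to 1.06). UMIs of *Stmn1* per UMI of *Stmn2* were 1.01 (0.983 to 1.03), 1.33 (1.31 to 1.35) and 1.49 (1.46 to 1.52). Wild-type was thus set apart from both mutants in each ratio.

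A difference between wild-type and the mutants in the same direction was seen in most other groups of cells. In the endothelial-like cluster, *Mapt* per *Map2* was 2.20 (1.65 to 2.96) in wild-type, 1.0 (0.528 to 1.89) in heterozygous and 1.09 (0.592 to 2.004) in homozygous cells. In empty droplets it was 1.64, 1.27 and 1.13. A group was counted only where both genes of the pair had at least 20 UMIs in each of the 3 libraries. Typical cells aside, both mutants lay below wild-type in 9 of 9 such groups (atypical cells, 7 clusters of outside cells and empty droplets). Intervals were apart in 5 of 9 for each mutant. The pairs were chosen with the values of these groups known, so such counts are a description and support nothing. For *Stmn1* per *Stmn2*, typical cells aside, the heterozygous library lay above wild-type in 18 of 18 groups and the homozygous library in 17 of 18. Intervals were apart in 10 and 12. The exception was the cluster led by *Reln* (1.34 in homozygous against 1.39 in wild-type cells), with 6 homozygous and 49 wild-type cells. In outside cells as 1 pool, whose mixture of cell types differed between libraries, heterozygous cells lay slightly below wild-type (1.54 against 1.57) and homozygous cells above (1.68). Groups of 1 library share its preparation and its free RNA and are not replicates, and whether a property of the libraries moves these ratios was not tested.

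**Figure D3:**
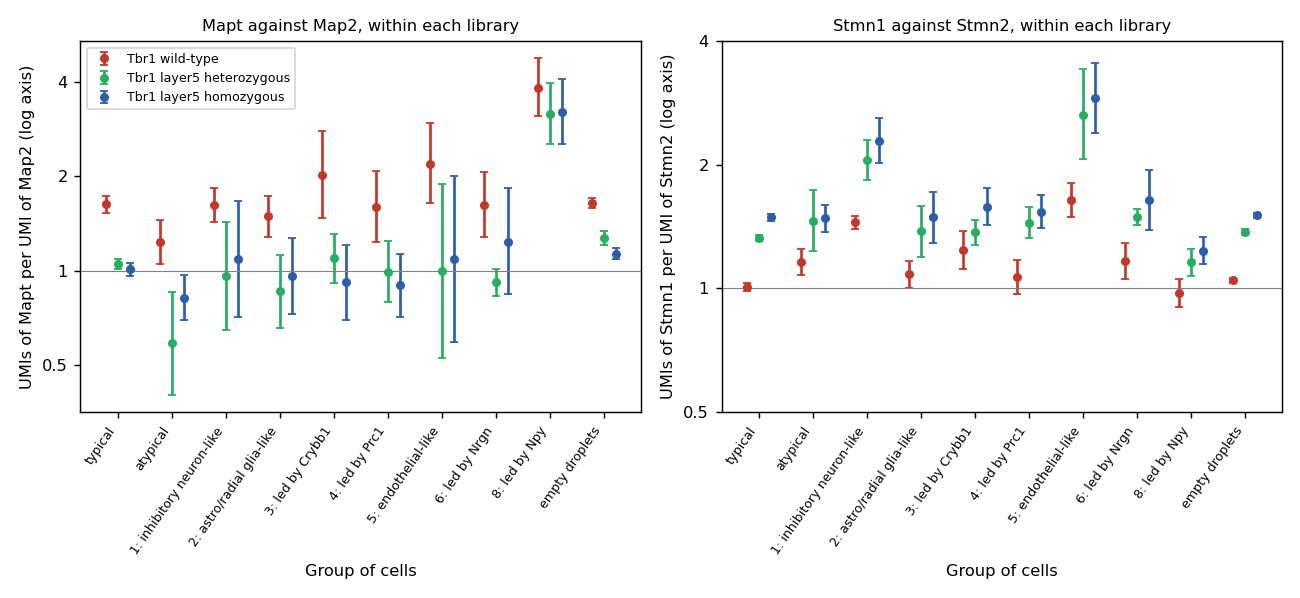
UMIs of *Mapt* per UMI of *Map2* (left) and of *Stmn1* per UMI of *Stmn2* (right), log axes, in each group of cells and in empty droplets of the 3 libraries, with 95% counting intervals as bars. In endothelial-like cells and empty droplets, as in typical neurons, the wild-type library lies above both mutants on the left and below them on the right.

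Atypical neuronal cells, which the authors set aside after clustering the neuronal cells, held less of most members than typical cells. Downward, 7 of 10 members were past the limit in wild-type (18.0% of genes), 8 in heterozygous (33.3%) and 6 in homozygous cells (26.0%), and upward 0 of 10 were (25.9%, 22.1% and 14.3% of genes). In all 3 libraries 6 of 10 were lower past the limit (*Map1b*, *Mapt*, *Stmn1*, *Stmn2*, *Stmn3*, *Stmn4*), as were 8.35% of genes, and 0 of 10 were higher, as were 3.76%. The clustering used expression, so the counts are a description. *Neurod6* was at 50.3, 46.2 and 55.02 CPM in atypical cells, below typical cells in every library. *Nrgn* was below typical cells in wild-type (485 CPM) and homozygous cells (1082), but at 2354 CPM in the 107 heterozygous cells it was above the 2062 of typical ones. *Stmn2* was at 2002 CPM in atypical wild-type, 1064 in heterozygous and 1449 in homozygous cells, log2 ratios to typical cells of −0.84, −1.44 and −0.94. *Stmn1* gave −0.64, −1.31 and −0.95, and *Map1b* −0.59, −1.20 and −0.78. *Map2*, in contrast, was at 419, 370 and 451 CPM, with ratios of −0.02 (−0.20 to 0.17), −0.42 (−0.75 to −0.10) and −0.14 (−0.31 to 0.02). *Dcx* ratios lay between −0.21 and 0.01, and those of *Dclk1* between −0.25 and 0.12, all with intervals that included 0. In the same cells the striatal list, which includes *Ppp1r1b*, *Penk* and *Drd1*, summed to 318, 430.04 and 515 CPM against 31.3 to 49.6 in typical cells. Its part in these levels was not tested.

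Among outside cells, members past the limit downward against typical cells were 7 of 10 in wild-type (18.3% of genes), 4 in heterozygous (9.08%) and 6 in homozygous (16.6%), and upward 2 (56.3%), 2 (36.1%) and 1 (48.2%). In every library 4 of 10 were lower (*Map1a*, *Map2*, *Stmn2*, *Stmn3*), as were 7.62% of genes, and 1 of 10 (*Dclk1*) was higher, as were 33.1%. *Dclk1* was at 226, 223 and 212 CPM in outside cells, at log2 ratios of 0.82, 0.66 and 0.73. Outside cells are a mixture, so they were clustered on genes other than the members, and 20 of 22 clusters held at least 50 cells. Kept to the named glial, vascular, immune and blood clusters, a choice made after the clusters were seen, 9 of 10 members were past the limit downward in every library, as were 20.02% of 4965 genes, and *Dclk1* was again past it upward (0.98, 1.11 and 0.72), as were 44.35%. *Stmn2* then gave −2.08, −2.09 and −2.24. *Dcx* changed sign with this choice, from 0.47 to −1.07 in wild-type and from 0.44 to −1.83 in heterozygous cells, since the neuron clusters that hold *Dcx* were left out. The authors picked neuronal cells by expression, and the named clusters were picked by markers. The counts of outside against typical cells are thus a description.

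**Figure D4:**
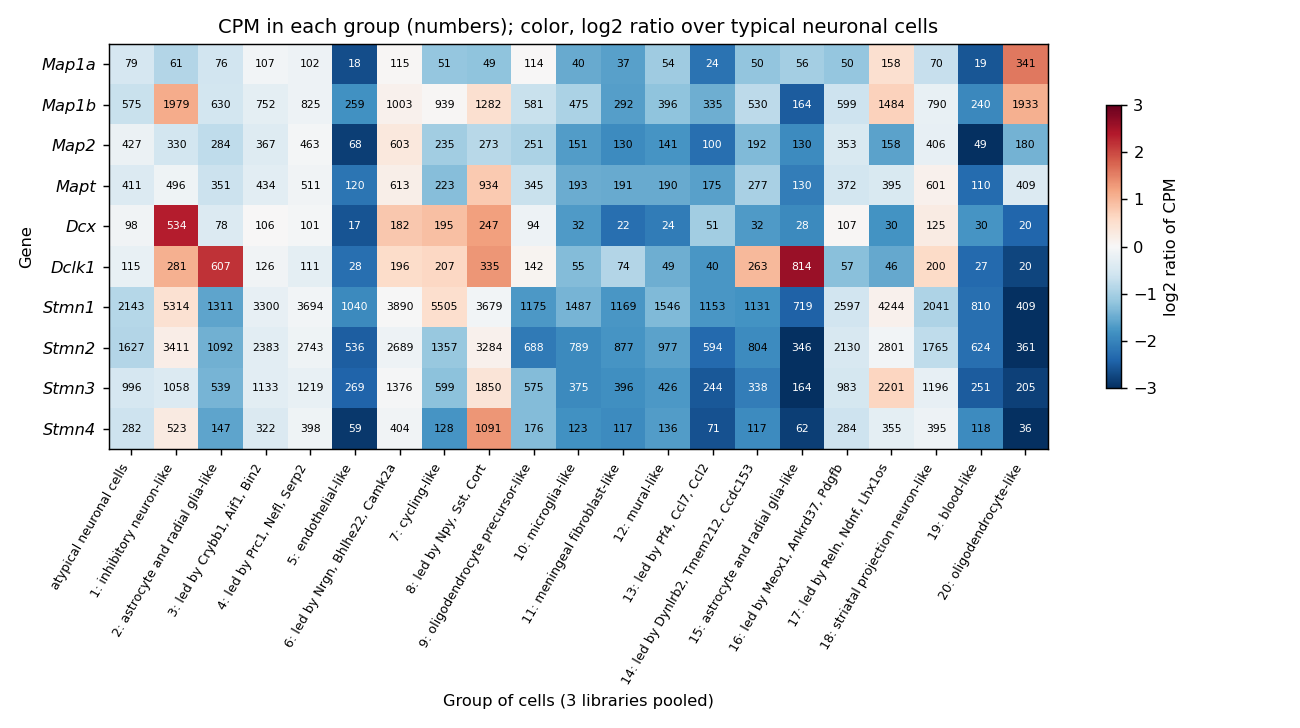
CPM of each gene (numbers) in atypical neuronal cells and in 20 clusters of outside cells, 3 libraries pooled, with color for the log2 ratio over typical neuronal cells (red higher, blue lower, saturated at 3 either way). *Dclk1* is highest in the astrocyte and radial glia-like clusters (607 and 814), *Dcx* in the inhibitory neuron-like cluster (534) and *Map1a* in the oligodendrocyte-like cluster (341).

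Different members were highest in different cells. The inhibitory neuron-like cluster (763 cells, led by *Igfbpl1*, *Dlx6os1* and *Sp8*) held *Dcx* at 533 CPM in wild-type (494 to 575), 501 in heterozygous (395 to 626) and 572 in homozygous cells (454 to 712). These intervals overlap, and each lies above that of typical cells of the same library. The cluster also held *Map1b* at 1979 CPM over the libraries (1909.6 to 2050.2) and *Stmn1* at 5314 (5199.6 to 5429.7). Its *Map1a* was low, at 61.2 CPM (49.5 to 74.8). The cycling-like cluster (336 cells, with 4 of 6 inhibitory markers high as well) had *Stmn1* at 5505 CPM (5372 to 5641) but *Stmn2* at 1357 (1291 to 1425) and *Stmn4* at 128 (108 to 149.9). *Stmn1*, known from dividing cells, and the neuronal stathmins were thus furthest apart there. UMIs of *Stmn1* per UMI of *Stmn2* were 3.86 in wild-type (283 cells), 7.27 in heterozygous (26 cells) and 4.37 in homozygous cells (27 cells). The mutant values rest on few cells, and their difference was not tested.

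A cluster led by *Npy*, *Sst* and *Cort* (314 cells) had *Mapt* at 934 CPM (879 to 992), *Stmn4* at 1091 (1032 to 1154) and *Stmn3* at 1850.4 (1772 to 1931). It was left without a name because none of the inhibitory markers fixed for naming was among its 10 leading genes. *Stmn4* in it was at 891 CPM in wild-type (801 to 989), 1046 in heterozygous (947 to 1154) and 1362 in homozygous cells (1244 to 1489), so the level was higher in homozygous cells beyond counting error, at a log2 ratio of 0.61 (0.41 to 0.81). *Mapt* was lower in both mutants there, at −0.31 (−0.52 to −0.10) and −0.37 (−0.59 to −0.16). A cluster led by *Reln* and *Ndnf* (69 cells) held *Stmn3* at 2201 CPM (2052 to 2358) and *Map1a* at 158 (120.1 to 205), with *Dcx* from 11 UMIs in all.

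*Dclk1* was highest in the astrocyte and radial glia-like cells. It was at 613 CPM in wild-type (569 to 659.6), 628 in heterozygous (544 to 720.2) and 567 in homozygous (489 to 654) cells of the larger astrocyte and radial glia-like cluster (690 cells). A smaller cluster of the same name (83 cells, led by *Gfap*) had 814 CPM (719 to 919). *Dcx*, its close relative, was at 78.0 (65.7 to 91.9) and 27.8 (12.7 to 52.7) CPM in these clusters. The oligodendrocyte-like cluster (50 cells, with *Mbp* and *Mag* among its leading genes) held *Map1b* at 1933 CPM (1764 to 2114) and *Map1a* at 341 (272 to 421). In it *Stmn1* was at 409 CPM (334 to 497), *Stmn4* at 36.1 (16.5 to 68.5) and *Dclk1* at 20.05 (6.51 to 46.8) over the pooled libraries. *Stmn2* was at 361 CPM (290.2 to 444) and *Stmn3* at 205 (152 to 269). These levels rest on 28, 4 and 18 cells of the 3 libraries. *Mapt* was at 409 CPM (334 to 497) in these cells.

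Endothelial-like cells (502 cells) gave the level of these neuronal transcripts in cells that should lack most of them. There *Map1a* was at 17.9 CPM (12.05 to 25.5), *Dcx* at 17.3 (11.6 to 24.8), *Dclk1* at 28.0 (20.6 to 37.2) and *Stmn4* at 58.9 (47.9 to 71.7). *Stmn1* was at 1040.3 CPM (992 to 1090.3) and *Stmn2* at 536 (502 to 572). Thinned to 1000 UMIs, 51.8% to 65.2% of endothelial-like cells had a UMI of *Stmn1* and 26.5% to 51.4% one of *Stmn2*, against 95.7% to 97.1% and 92.2% to 95.6% of typical cells. For *Dcx* the shares were 1.20% to 2.92% in endothelial-like and 8.14% to 9.91% in typical cells. Every member was thus seen in a larger share of typical than of endothelial-like cells at equal depth, while the endothelial-like shares of *Stmn1* are far from 0.

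Mutant over wild-type ratios were also computed in the 6 clusters with at least 50 cells of every library. *Mapt* was below wild-type in 6 of 6 for both mutants, with intervals below 0 in 5 of 6, and its homozygous ratios ran from −1.24 (endothelial-like) to −0.21 (astrocyte and radial glia-like). *Stmn2* was below wild-type in 6 of 6 for heterozygous and 5 of 6 for homozygous cells, with 4 of 6 intervals below 0 in each. *Map1b* was below in 5 of 6 for each mutant, but with intervals below 0 in 2 and 3. *Stmn4* was above in 5 of 6 for each, with intervals above 0 in 2 and 2. *Stmn1* was above in 4 of 6 for heterozygous and 5 of 6 for homozygous cells, with intervals above 0 in 3 and 3, and its lowest heterozygous ratio was −0.20 in endothelial-like cells. *Map2* was above in 5 of 6 for heterozygous and 3 of 6 for homozygous cells, with intervals above 0 in 2 and 3 and below 0 in 0 of 6 for both. *Map1a* was above in 5 of 6 for heterozygous and 2 of 6 for homozygous cells. Its intervals were above 0 in 1 and 0, and below 0 in 1 and 0. *Dclk1* was above in 5 of 6 and 3 of 6, with intervals above 0 in 2 and 0. *Dcx* was below in 5 of 6 and 4 of 6, with intervals below 0 in 1 and 0. *Stmn3* was below in 4 of 6 for each mutant, with intervals below 0 in 1 and 2 and above 0 in 1 and 0. The share of all genes was not computed in these clusters. The direction seen for *Mapt* in typical neurons was thus also that of these 6 clusters, endothelial-like cells included. The part of free RNA, which enters all of them, was not tested.

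The rest of the microtubule machinery was read from a list of 62 other regulators (end-binding proteins, severing enzymes, further MAPs, kinases and phosphatases that act on tau), all in the table and 39 of them at 20 CPM or more. In the heterozygous library 5 of 39 were past the limit upward and 4 downward, and in the homozygous library 4 and 4, beside the 17.1% and 9.50%, and 17.2% and 8.50%, of all genes given above. Their median log2 ratio was 0.03 and 0.05. Past the limit in the same direction in both mutants were 3 of 39 upward (*Fez1*, *Gas2l1*, *Mark2*) and 3 downward (*Nav1*, *Mark4*, *Ccser2*), as were 11.7% and 5.68% of all genes. Of these, *Fez1* and *Nav1* had a mean of at least 50 CPM. *Fez1*, an adaptor of kinesin transport, was at 282 CPM in wild-type, 355 in heterozygous and 378 in homozygous cells, log2 ratios of 0.33 (0.23 to 0.43) and 0.43 (0.32 to 0.53). *Nav1*, a neuron navigator at microtubule plus ends, was at 87.2, 58.2 and 52.8 CPM, with ratios of −0.58 (−0.78 to −0.38) and −0.72 (−0.95 to −0.49), beyond any of the 10 members.

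The genes most like each member were sought over 35 groups of cells (cluster or class by library) among 1420 genes, with Pearson's r of log2(CPM + 1) as the measure. The points share libraries and free RNA, and the values are a description. *Tubb3*, the neuronal beta-tubulin, was nearest to *Map1b* (0.948) and among the 3 nearest to *Stmn1*, *Stmn2* and *Dcx*. *Tubb2a* was nearest to *Mapt* (0.928), *Ctxn1* to *Map2* (0.952), *Nsg2* to *Dcx* (0.946) and *Ywhag* to *Stmn3* (0.963). *Crmp1*, a collapsin response mediator, was nearest to *Stmn2* (0.945), and *Dpysl2* of the same family to *Stmn4* (0.95). *Dclk1* was nearest to *Gpm6a* (0.936), and *Map1a* had the least close partner, *Map2* (0.856).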

How the data were processed

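Single-cell RNA was captured with the 10X Genomics 3′ v2 kit. The authors counted UMIs with Cell Ranger 2.0.1 on mm10, per the labels, and the deposited matrices and the table of filtered cells hold raw counts without normalization, equal to each other in every cell and gene compared. The authors removed cells and genes by limits on mitochondrial share, UMIs and genes. The mitochondrial columns were deposited as a fraction of UMIs of a cell, although named percent. The neuronal table holds values the authors deposited on a natural log scale (1 added to UMIs per 10000, from Seurat), and only its gene list and the authors' cell classes were used. A table of scaled values was not used.

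For each library and class of cells, a gene's raw UMIs were summed and expressed per 1000000 of the class total (CPM). Sums carry exact Poisson and ratios exact conditional binomial intervals at 95%, for counting error only, and shares of cells exact binomial (Clopper-Pearson) ones. The typical cells sum to 3670646, 10418228 and 6074494 UMIs (wild-type, heterozygous, homozygous). The authors' test of single cells was not repeated, since cells are not replicates. Outside cells were clustered with leidenalg 0.10.2 on 30 principal components of 2000 variable genes without the 10 genes (15 neighbors, resolution 1), and named by at least 3 high markers, with 1 or more among the 10 leading genes. No doublet caller was run, and an alternative left out the deepest 5% of cells. The ratio and its interval were tested on simulated counts that held Poisson error only, with no variation between animals or libraries. Of genes simulated without a change, 2.43% (heterozygous depth) and 4.02% (homozygous depth) passed the limit. Clustering, naming and droplet subtraction were not simulated. Positions are from GENCODE M21 on GRCm38. The text names the 10 genes, the regulators past the limit in both mutants at 50 CPM or more, and the nearest genes at 100 CPM or more. The genes and lists were chosen with earlier results of these data known.

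Alternatives were another denominator of CPM, scaling by TMM factors (edgeR 4.0.16), per-cell averages of raw UMIs or of UMIs per 10000, thinning to 1000 UMIs, atypical cells included, the deepest 5% left out, subtraction of the empty-droplet profile, and genes of any level as background. Named non-neuronal clusters alone were added after the data were seen.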

Additional observations from a re-analysis of the deposited data

Results flagged for a closer look

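*Stmn3* stood out because its difference between heterozygous and wild-type had opposite signs in 2 kinds of cells. It was the only such case in a search over the 10 genes, 6 clusters and both mutants. In the larger astrocyte and radial glia-like cluster the log2 ratio was 0.24 (0.00 to 0.47), at 609 CPM in heterozygous and 516 in wild-type cells, from 197 and 609 UMIs. In typical neuronal cells it was −0.25 (−0.29 to −0.20), at 1360.02 and 1615 CPM. Both intervals lie on one side of 0, but that of the cluster starts at 0.0006. With 1 library for each genotype the difference between the cell types was not tested. Homozygous over wild-type, the same cluster gave 0.10 (−0.14 to 0.35). In empty droplets the heterozygous ratio was −0.04 (−0.07 to −0.00).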

How the results depend on the processing

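No paired analysis was possible because each genotype has 1 library and the labels carry no replicate numbers. For the same reason no library could be left out. Among the counts of members past the limit, 44 alternative values stayed within 1.5 times the reported count and 6 did not. The heterozygous downward count was 2 with the neuronal genes as denominator, 3 with mean raw UMIs per cell and 3 with the droplet profile subtracted, against 1, while the share of all genes was 11.01%, 15.2% and 11.8%, against 9.50%. The homozygous downward count was 7 with mean raw UMIs per cell, against 3, with 52.4% of all genes against 8.50%. The outside over typical count was 2 upward after thinning, against 1, and 9 downward in the named glial, vascular, immune and blood clusters, against 4. The share of all genes for outside cells after thinning was not computed, and that for the named clusters is given above. Of 510 alternative values of single ratios, 361 stayed within the counting interval of the reported ratio. The sign differed in 24, of which 15 concern ratios whose reported interval held 0 and 9 ratios whose interval did not. Of these 9, 7 came with mean raw UMIs per cell, a scale that follows depth and lowers the median of all genes by 0.42 in homozygous over wild-type (by 0.09 in heterozygous): *Stmn1* −0.0004 in heterozygous and −0.22 in homozygous over wild-type, *Map2* −0.19 and *Stmn4* −0.21 in homozygous over wild-type, and *Dcx* −0.11, *Stmn1* −0.22 and *Stmn4* −0.21 in homozygous over heterozygous. The other 2 were *Dcx* in the named non-neuronal clusters, −1.07 in wild-type and −1.83 in heterozygous. Over the 7 other alternatives *Mapt* ranged from −0.46 to −0.37 in heterozygous and from −0.51 to −0.43 in homozygous over wild-type, and *Map2* from 0.19 to 0.31 and from 0.18 to 0.32. Depth limits *Map1a*, *Dcx* and *Dclk1* most.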
